A study of Mus musculus with 3 samples.

Results

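Cells hold on to laminin, collagen and fibronectin through integrins, which are pairs of an alpha and a beta subunit, and through single-chain receptors such as dystroglycan and the Lutheran glycoprotein. The genes described here are 10 such matrix receptor genes of the mouse, namely Itgb1, Itgb5, Itga1, Itga3, Itga5, Itga6, Itga7, Itgav, Dag1 and Bcam, chosen by their Entrez numbers out of 17997 genes listed in at least 1 of 3 RNA-seq libraries. All 10 were listed in every library. The name "laminin and collagen receptors" covers them in part: Itga5, Itgav and Itgb5 encode receptors known mainly for fibronectin and vitronectin.

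The libraries come from total RNA of 46C cells, a mouse embryonic stem cell line (strain 129) grown with serum and LIF on gelatin. The first, called Lef1 P2, is from cells transfected with lef1 (PB-Lef1) and collected at passage 2. The second, Lef1 P5, is from lef1-transfected cells collected at passage 5. The third, empty vector P2, is from cells transfected with the empty vector (PB) and collected at passage 2. Each group has n = 1 library, so there is no replicate, no test between conditions and no p-value. The sources used here do not say whether the transfected cells were a pool or a clone, or what drives Lef1. Values are FPKM as deposited (fragments per kilobase of transcript, scaled to library size), and the intervals in parentheses are 95% Poisson intervals of the expected read count put on that scale. They cover counting error only, not the difference between cultures.

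The expected counts summed to 9170554 in Lef1 P2, 9380813 in Lef1 P5 and 9225401 in empty vector P2. Lef1 was at 135, 214 and 1.49 FPKM in these libraries, as their labels give it. By the call rule given below, none of 8 stem cell markers was called in any comparison. Of all genes that passed its minimums, 8.31% were called in Lef1 P2 over empty vector P2. The shares were 2.69% in Lef1 P5 over empty vector P2 and 8.74% in Lef1 P5 over Lef1 P2. A count of 0 among 8 is not a result about these markers. Their summed level was 5445, 5906 and 5947 FPKM, most of it Dppa5a (3818, 3816 and 3771 FPKM). In Lef1 P2 over empty vector P2 their log2 ratios ran from -0.69 (Pou5f1, 704 against 1135 FPKM) to 0.57 (Tfcp2l1, 84.5 against 56.6 FPKM). Endoderm markers summed to 188 FPKM in Lef1 P2, 61.55 FPKM in Lef1 P5 and 12.8 FPKM in empty vector P2, and 7 of 8 were called higher in Lef1 P2 than in empty vector P2. In that comparison 6.49% of all genes that passed were called higher. Fibroblast or feeder markers summed to 14.6, 9.09 and 18.5 FPKM, most of it Thy1, with Prrx1 and Postn taken as 0 because no table lists them. Trophoblast markers summed to 15.7, 11.4 and 14.1 FPKM, most of it Tfap2c, with Elf5 taken as 0 likewise. Blood or endothelial markers summed to 20.6, 19.5 and 18.5 FPKM, most of it Pecam1, with Ptprc taken as 0 likewise. In RNA from a mixed culture, fewer cells of a type and less RNA per cell cannot be told apart.

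Integrin signalling works in both directions. A matrix ligand that binds the outer heads pulls talin and kindlin onto the beta tail inside, and those proteins in turn set how firmly the heads bind. In the early mouse embryo the beta 1 integrins and dystroglycan are needed for the basement membrane that endoderm cells lay down beneath themselves, and cultured embryonic stem cells attach mainly through beta 1 integrins. The alpha 6, alpha 3 and alpha 7 subunits bind laminins, alpha 1 binds collagen IV, and alpha 5 and alpha V bind the RGD sequence of fibronectin and vitronectin.

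The receptor genes differed far more from each other than from library to library, and in all but Itga1 the highest level was at most 2.13 times the lowest. Itgb1, the shared beta 1 subunit, was at 45.35 FPKM (43.2 to 47.5) in Lef1 P2, 43.0 FPKM (41.0 to 45.1) in Lef1 P5 and 48.55 FPKM (46.4 to 50.8) in empty vector P2. Its highest level was 1.13 times its lowest. Bcam, which encodes the Lutheran glycoprotein, a receptor for the laminin alpha 5 chain, was at 39.7 FPKM (37.1 to 42.4) in Lef1 P2, 48.4 FPKM (45.5 to 51.3) in Lef1 P5 and 51.1 FPKM (48.1 to 54.2) in empty vector P2. Lef1 P2 is the low library for Bcam, and the intervals of the other two overlap.

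Among the laminin-binding alpha subunits, Itga6 was at 37.7 FPKM (36.1 to 39.4) in Lef1 P2, 30.3 FPKM (28.8 to 31.8) in Lef1 P5 and 43.7 FPKM (41.9 to 45.5) in empty vector P2. These intervals do not overlap, and Lef1 P5 is the lowest. Itga3 was at 19.25 FPKM (17.98 to 20.6) in Lef1 P2, 17.1 FPKM (15.9 to 18.3) in Lef1 P5 and 18.8 FPKM (17.6 to 20.2) in empty vector P2. All 3 intervals of Itga3 overlap. Itga7, whose protein is best known from muscle, was at 1.95 FPKM (1.52 to 2.46) in Lef1 P2, 1.10 FPKM (0.789 to 1.49) in Lef1 P5 and 1.31 FPKM (0.966 to 1.74) in empty vector P2, from 71, 41 and 48 reads.

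Dag1 encodes the dystroglycan precursor, which is cut into an outer part that binds laminin through its sugars and a part that spans the membrane. Its level was 34.5 FPKM (32.9 to 36.2) in Lef1 P2, 30.3 FPKM (28.8 to 31.9) in Lef1 P5 and 41.5 FPKM (39.7 to 43.3) in empty vector P2. Both Lef1 libraries lie below empty vector P2, with intervals that do not overlap.

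Itga1, the collagen-binding alpha 1 subunit, was at 0.11 FPKM (0.0404 to 0.239) in Lef1 P2, 0.66 FPKM (0.465 to 0.910) in Lef1 P5 and 0.26 FPKM (0.142 to 0.436) in empty vector P2. It rests on 6, 37 and 14 reads. It is the least abundant member in every library. The gene Pelo lies within its span in the reference annotation, and since strand use in counting is not given, their reads may not be fully separable.

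Of the fibronectin and vitronectin receptors, Itga5 was at 21.0 FPKM (19.6 to 22.5) in Lef1 P2, 9.87 FPKM (8.93 to 10.9) in Lef1 P5 and 18.15 FPKM (16.9 to 19.5) in empty vector P2. Lef1 P5 is the low library, and the other two lie close together with intervals that just miss each other. Itgav was at 12.2 FPKM (11.4 to 13.1) in Lef1 P2, 6.67 FPKM (6.06 to 7.32) in Lef1 P5 and 8.33 FPKM (7.64 to 9.06) in empty vector P2. For Itgav the 3 intervals are separate, with Lef1 P2 the highest. Itgb5, a beta subunit that pairs with alpha V, was at 16.6 FPKM (15.1 to 18.1) in Lef1 P2, 17.9 FPKM (16.4 to 19.4) in Lef1 P5 and 21.6 FPKM (19.98 to 23.3) in empty vector P2. Here empty vector P2 is the highest.

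**Figure D1:**
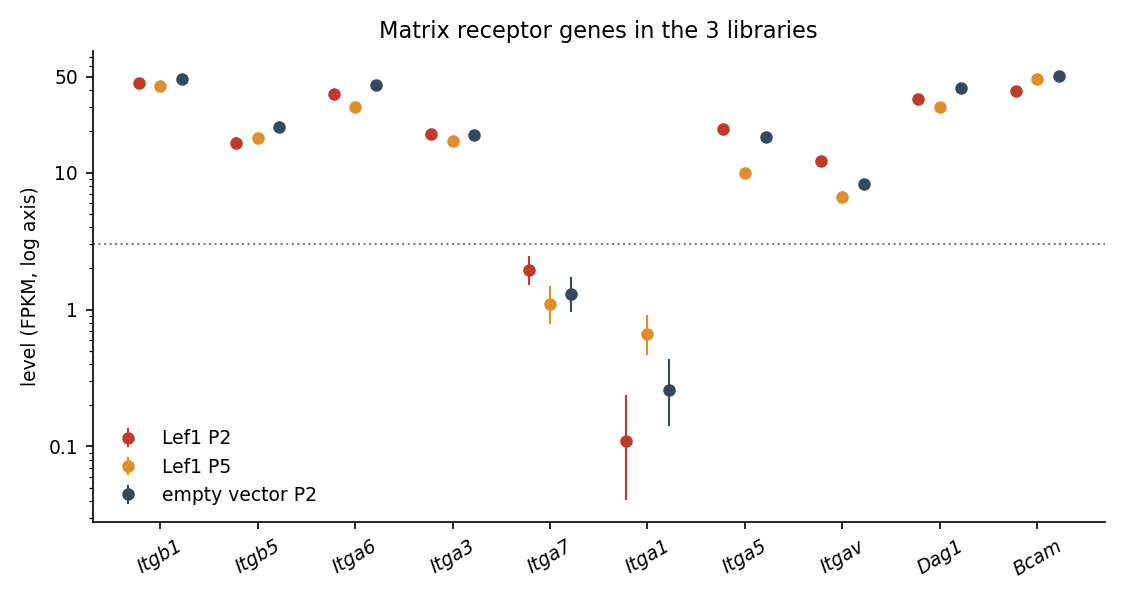
Level of each receptor gene in FPKM on a log axis, with 1 point per library (Lef1 P2, Lef1 P5, empty vector P2) and bars for the 95% counting interval; the dotted line is the minimum of 3 FPKM. The points of 8 genes lie between 6.67 and 51.1 FPKM, while Itga7 and Itga1 lie below 3 FPKM in every library.

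The order of levels, compared per length in FPKM, was similar across libraries, with Itgb1, Bcam, Itga6 and Dag1 in the first 4 places and Itgav, Itga7 and Itga1 in the last 3. Bcam was first in Lef1 P5 and empty vector P2, and Itgb1 was first in Lef1 P2. In empty vector P2 the intervals of the neighbours Bcam and Itgb1 overlapped, as did those of Itga6 and Dag1. Itgb5 overlapped there with Itga3, and Itga3 with Itga5. In Lef1 P2 Bcam overlapped with Itga6, Itga6 with Dag1, Itga5 with Itga3 and Itga3 with Itgb5. In Lef1 P5 Dag1 overlapped with Itga6, Itgb5 with Itga3 and Itga7 with Itga1, whereas Itga5 lay below Itga3 without overlap. Itgb1 stood at the 89.6th percentile of all genes listed in Lef1 P2, and Itga1 at the 6.79th.

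At passage 2, cells with introduced Lef1 can be set against cells with the empty vector. The 8 receptor genes with enough reads lay between 0.766 and 1.46 times the empty-vector level. Calls required that log2((x + 1)/(y + 1)) of the FPKM values be at least 1 in size, with at least 3 FPKM and 20 expected reads in the higher library. Of the 10 receptor genes, 8 passed those minimums and 0 were called, where 8.31% of all 10651 genes that passed were called (691 higher, 6.49%, and 194 lower, 1.82%; 508 and 304 with median-of-ratios scaling). Against that background a count of 0 among 8 is not a result about the receptors. Itga1 and Itga7 were below the minimum.

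In the values as deposited, the largest shift among the 8 was that of Itgav, at 1.46 times the empty-vector level (1.31 to 1.64), a log2 ratio of 0.50. With median-of-ratios scaling Itgav was at 0.36, and Itgb5 and Bcam, at -0.51 each, and Dag1, at -0.41, were farther from 0. Itga5 was at 1.16 times that level (1.05 to 1.28) and Itga3 at 1.02 times (0.928 to 1.13). The other 5 lay below it: Itgb1 at 0.934, Itga6 at 0.863, Dag1 at 0.833, Bcam at 0.776 and Itgb5 at 0.766 times. As deposited, the counting interval of the ratio left out 1 for all of the 10 genes but Itga1 and Itga3. The share of all genes with such an interval was not computed, so this count is not a result about the receptors. The median log2 ratio of the 8 receptor genes was -0.15, against 0.09 for all genes that passed. After median-of-ratios scaling the median of all genes was -0.06 and that of the receptor genes -0.31, and the same 2 values came from TMM scaling. Quantile scaling gave -0.03 and -0.13. Itga3 was on the low side with median-of-ratios or TMM scaling (-0.12 with each) and with quantile scaling (-0.08). The log2 ratio of Itga5 was 0.20 as deposited, 0.05 with median-of-ratios or TMM scaling and 0.095 with quantile scaling, closer to no change under each of the other scalings. The typical size of a shift, as the median of absolute log2 ratios, was 0.23 for the receptor genes and 0.33 for all genes. In Lef1 P5 over empty vector P2 the order was the other way, at 0.27 and 0.19, and in Lef1 P5 over Lef1 P2 the sizes were 0.23 and 0.36.

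Some ligand genes of these receptors moved by much more in the same libraries. A list of 30 matrix ligand genes was listed in full, 15 passed the minimums, and 8 were called higher and 0 lower in Lef1 P2, with a median log2 ratio of 1.08 against 0.09 for all genes. The other 7 that passed were not called. Among all genes that passed, 6.49% were called higher and 1.82% lower. The ligand list was chosen with earlier results of these data known. With median-of-ratios or TMM scaling 6 ligand genes were called higher, with quantile scaling 7. Those named by rule are the collagen IV chains Col4a2 (194.9 FPKM in Lef1 P2, against 9.73 FPKM in empty vector P2) and Col4a1 (316 against 17.0 FPKM) and the laminin chain Lama1 (277 against 24.0 FPKM). Fn1, the fibronectin gene bound by the Itga5 product, was at 175 FPKM in Lef1 P2 and 166 FPKM in empty vector P2 and was not called. Lama5, which encodes the chain bound by the Bcam product, was at 49.9 and 45.1 FPKM and was not called.

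A ratio taken within each library does not depend on the scaling between libraries. The summed FPKM of the laminin genes Lama1, Lamb1 and Lamc1 was 6.75 times that of the laminin-binding receptors Itga3, Itga6, Itga7, Dag1 and Bcam in Lef1 P2, 2.45 times in Lef1 P5 and 0.973 times in empty vector P2. The receptor sum in that ratio was 133 FPKM in Lef1 P2, 127 FPKM in Lef1 P5 and 156 FPKM in empty vector P2, so most of the difference lies in the laminin genes. Each of these laminin genes was called higher in Lef1 P2 over empty vector P2, and Lamc1 was added after its values were seen. The size of the contrast therefore depends on the choice of genes. Lama5 is not in the laminin sum. Its level was 49.9 FPKM in Lef1 P2, 43.5 FPKM in Lef1 P5 and 45.1 FPKM in empty vector P2. Fn1 was at 3.51, 2.54 and 3.45 times the summed level of Itga5, Itgav and Itgb5 in the same order of libraries. The 10 receptor genes together summed to 228 FPKM in Lef1 P2, 205 FPKM in Lef1 P5 and 253 FPKM in empty vector P2. The summed endoderm markers given above move with the ligand genes, and their part in these ratios was not tested.

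**Figure D2:**
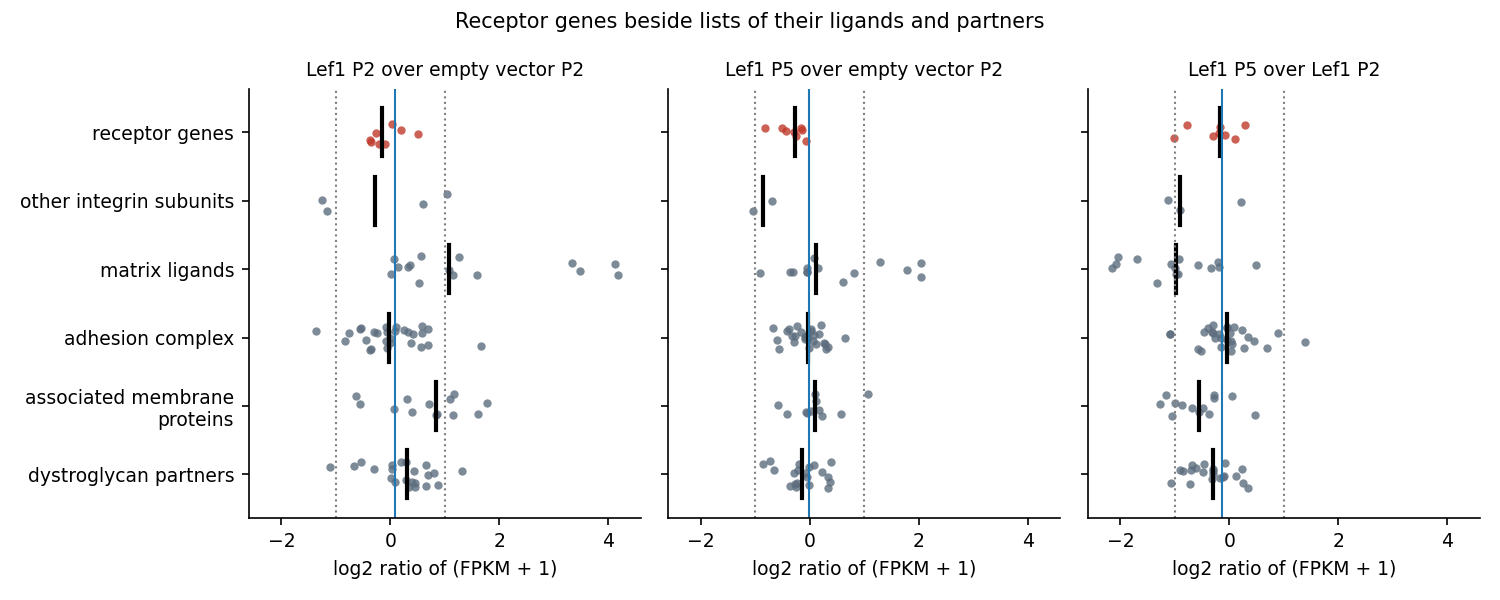
Log2 ratio of (FPKM + 1) for the receptor genes (red) and for lists of their ligands and partners (grey), 1 point per gene that passed the minimums, in the 3 comparisons; black bars are list medians, the blue line is the median of all genes, and dotted lines mark the call threshold of 1. In Lef1 P2 over empty vector P2 the receptor genes have a median of -0.15 and none reaches the threshold. Of 15 ligand genes 8 lie above it, where 6.49% of all genes were called higher.

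Among proteins that work beside the receptors, the adhesion complex and dystroglycan lists had calls near the background of 8.31%, with 2 genes called in each. Of 33 listed genes of integrin activation and the adhesion complex, 28 passed the minimums in Lef1 P2 against empty vector P2 and 26 were not called. Parva, whose actin-binding product parvin forms a complex with integrin-linked kinase, was called higher, at 6.95 FPKM in Lef1 P2 and 1.5 FPKM in empty vector P2. Rsu1, which encodes a partner of the same complex, was called lower, at 16.65 FPKM in Lef1 P2 and 44.6 FPKM in empty vector P2. The talin gene Tln1 (35.6 and 29.6 FPKM) and the kindlin gene Fermt2 (39.0 and 48.35 FPKM) were not called. Of 13 integrin-associated membrane proteins 5 were called higher, where 6.49% of all genes were, and 0 lower, with 3 higher under median-of-ratios or TMM scaling. They include the tetraspanin genes Cd82 (3.91 FPKM in Lef1 P2 and 0.43 FPKM in empty vector P2), Cd63 (206 and 66.3 FPKM) and Tspan9 (24.2 and 10.3 FPKM).

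Among 29 listed dystroglycan partners and the enzymes that build its laminin-binding sugars, 22 passed and 20 were not called. The sarcoglycan gene Sgce was called higher, at 6.87 FPKM in Lef1 P2 and 2.16 FPKM in empty vector P2. The syntrophin gene Sntb2 was called lower, at 10.6 FPKM in Lef1 P2 and 23.9 FPKM in empty vector P2.

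Of 17 listed other integrin subunits only 4 passed the minimums, with 1 called higher and 2 lower. Among all genes that passed, 6.49% were called higher and 1.82% lower. With so few that passed, these counts are not a result about the list. Itgb7, a beta subunit known from lymphocytes, was called lower, at 5.33 FPKM in Lef1 P2 and 14.15 FPKM in empty vector P2, as was Itga9 (0.97 and 3.43 FPKM). Itga2b, known from platelets, was called higher (3.26 and 1.06 FPKM), a call lost with median-of-ratios, TMM or quantile scaling. Itga9 and Itga2b reached the minimum of 3 FPKM only in the library where each was higher. Itgb4, which joins alpha 6 in the other laminin receptor of that subunit, was at 4.46 FPKM in Lef1 P2 and 2.58 FPKM in empty vector P2 and was not called. The other collagen-binding alpha subunits were as scarce as Itga1. Itga2 was at 0.10 FPKM in Lef1 P2, 0.03 FPKM in Lef1 P5 and was not listed for empty vector P2, Itga10 was at 0.42, 0.32 and 0.43 FPKM, and Itga11 at 0.09 and 0.07 FPKM in the Lef1 libraries and not listed for empty vector P2, so all of these and Itga1 lay below 1 FPKM wherever they were listed. Of 6 other collagen receptors, 3 passed and Adgrg6, an adhesion receptor gene, was called higher (3.50 and 0.35 FPKM), though not with quantile scaling. Adgrg6 too reached 3 FPKM only in Lef1 P2, and 1 call among 3 is not a result about these receptors. The collagen-binding receptor kinase gene Ddr1 was at 9.19 FPKM in Lef1 P2, 14.3 FPKM in Lef1 P5 and 15.3 FPKM in empty vector P2.

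Lef1 P5 differs from empty vector P2 in passage, 5 against 2, as well as in the introduced gene, so the effects of passage and of Lef1 cannot be told apart. This comparison shares the empty-vector library with the comparison above. Of the 10 receptor genes 9 had a ratio below 1, and Itga1 was above it. The share of all genes with a ratio below 1 was not computed, so this count is not a result about the receptors. Of the 8 that passed the minimums 0 were called, where 2.69% of 10121 genes were called (142 higher, 1.4%, and 130 lower, 1.28%). The median log2 ratio of the 8 was -0.27, against -0.02 for all genes, and between -0.25 and -0.23 under the 3 other scalings.

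The largest shift was that of Itga5, at 0.544 times the empty-vector level (0.480 to 0.615). Its log2 ratio of -0.82 was larger in size than that of 95.6% of the genes that passed, and is called lower only with a fold threshold of 1.5. Itga6 followed at 0.693 times (0.651 to 0.738), larger in size than 86.7% of genes, and Dag1 at 0.731 times (0.684 to 0.781), larger than 82.1%. Itgav was at 0.801, Itgb5 at 0.827, Itgb1 at 0.886, Itga3 at 0.906 and Bcam at 0.946 times. The interval of the ratio included 1 for Itga3, Itga7 and Bcam. For all genes the share with an interval that left out 1 was not computed here either. Itga1 was at 2.54 times its empty-vector level (1.34 to 5.08), below 1 FPKM in both libraries.

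In this comparison 4 of 14 ligand genes that passed were called higher and 0 lower, where 1.4% of all genes were called higher and 1.28% lower. They were led by Col4a2 (43.2 FPKM in Lef1 P5 and 9.73 FPKM in empty vector P2), Col4a1 (73.4 and 17.0 FPKM) and Lama1 (85.2 and 24.0 FPKM). Fn1 was not called, at 87.55 FPKM in Lef1 P5 and 166 FPKM in empty vector P2, a log2 ratio of -0.91 beside that of -0.82 for Itga5. None of 27 adhesion complex genes and none of 20 dystroglycan partners that passed was called, where 2.69% of all genes were. Against that share these counts are not a result about either list. Cd63 was the only called gene of 11 associated membrane proteins (140.1 and 66.3 FPKM, higher), and Itgb7 the only called gene of 2 other integrin subunits (6.37 and 14.15 FPKM, lower), a call lost with quantile scaling. None of the 6 other collagen receptors was called, of which 1 passed. A single call or none among 11, 2 or 1 genes that passed is not a result about the list.

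The comparison of Lef1 P5 with Lef1 P2 differs by passage as labelled, and each passage is a single library. Among the 8 receptor genes that passed the minimums, Itga5 and Itgav had the ratios farthest from 1. Of these 8 genes, 0 were called higher and Itga5 was called lower, where 8.74% of 10593 genes were called, 1.88% higher and 6.86% lower. Itga5 was at 0.470 times its Lef1 P2 level (0.416 to 0.530), a log2 ratio of -1.02, larger in size than 91.7% of genes. The call sits at the threshold. With median-of-ratios scaling its log2 ratio was -0.83, and it was called with neither that nor TMM or quantile scaling nor a pseudocount of 5 FPKM.

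Itgav was at 0.547 times its Lef1 P2 level (0.486 to 0.616), a log2 ratio of -0.78 that was not called. Itga6 was at 0.803 (0.752 to 0.857), Dag1 at 0.878, Itga3 at 0.887 and Itgb1 at 0.949 times. Bcam was at 1.22 times (1.11 to 1.34) and Itgb5 at 1.08 times (0.954 to 1.22). The median of all genes was -0.14 and that of the 8 receptor genes -0.17. Median-of-ratios scaling moved them to 0.05 and 0.02, TMM scaling to 0.03 and 0.0011, and quantile scaling to 0.02 and -0.14. The signs of Itgb1, Itga3 and Dag1 depended on the scaling. Over all genes 199 were called higher and 727 lower as deposited, against 373 and 460 with median-of-ratios scaling.

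**Figure D3:**
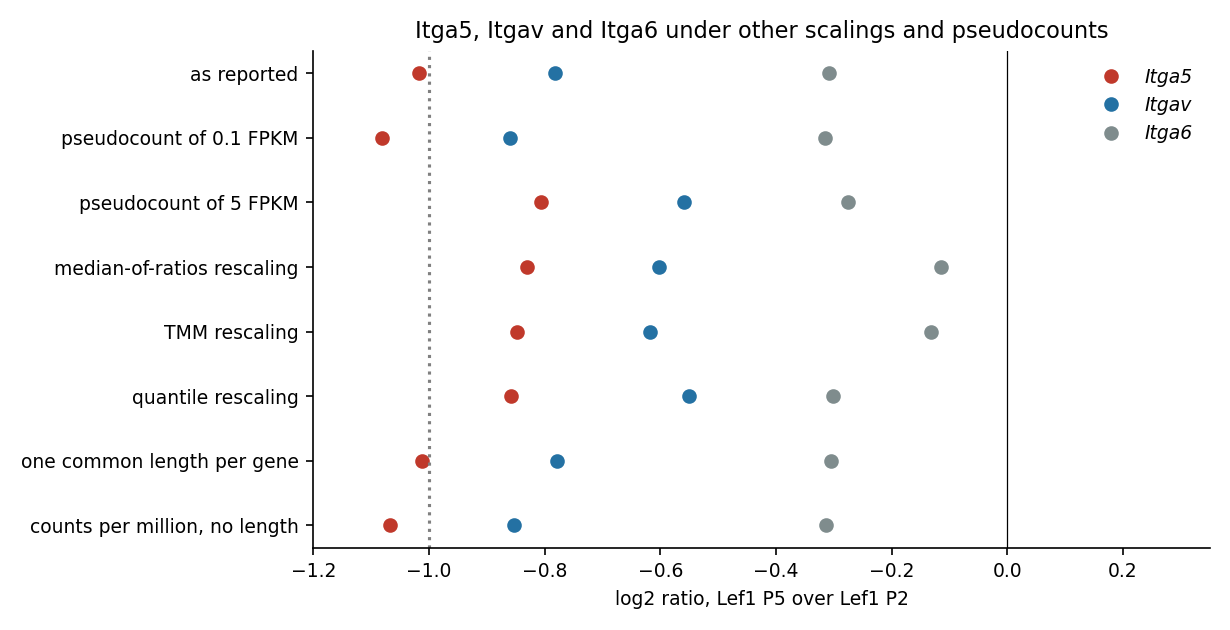
Log2 ratio of Lef1 P5 over Lef1 P2 for Itga5 (red), Itgav (blue) and Itga6 (grey) under each scaling and pseudocount; the dotted line marks the call threshold of -1. Itga5 runs from -1.08 to -0.81 and crosses the threshold, while Itgav stays between -0.86 and -0.55.

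Within the same libraries 6 of 15 ligand genes that passed were called lower and 0 higher in Lef1 P5 than in Lef1 P2, led by Col4a2 (43.2 FPKM in Lef1 P5 and 194.9 FPKM in Lef1 P2), Col4a1 (73.4 and 316 FPKM) and Lamb1 (78.7 and 330 FPKM). The count was 5 with median-of-ratios or TMM scaling and 9 with quantile scaling. As deposited, 6.86% of all genes that passed were called lower and 1.88% higher. Fn1 was at 87.55 FPKM in Lef1 P5 and 175 FPKM in Lef1 P2, a log2 ratio of -0.99, just short of a call. In the adhesion complex list the parvin genes Parva (2.73 and 6.95 FPKM) and Parvb (21.4 and 46.6 FPKM) were called lower and Rsu1 higher (45.5 and 16.65 FPKM). The parvin calls were lost with median-of-ratios scaling, where 2 genes of that list were called higher and 0 lower. Among the associated membrane proteins Cd82 (1.02 FPKM in Lef1 P5 and 3.91 FPKM in Lef1 P2), the integrin-associated protein gene Cd47 (1.08 and 3.68 FPKM) and the syndecan gene Sdc4 (50.35 and 105 FPKM) were called lower, as were Sgce among the dystroglycan partners (2.76 and 6.87 FPKM) and Itga2b among the other integrin subunits (0.94 and 3.26 FPKM). The calls of Sdc4 and Sgce were lost with median-of-ratios or TMM scaling, and those of Cd82, Cd47, Sgce and Itga2b with quantile scaling. None of the other collagen receptors was called, of which 3 passed. In the adhesion complex list 28 genes passed, and 13 among the associated membrane proteins. Of the dystroglycan partners 21 passed, and of the other integrin subunits 3. The adhesion complex and dystroglycan calls lie near the share of 8.74% of all genes called in either direction. They are not a result about those lists, nor is a call among 3 subunits.

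Set against Itgb1, the partner of most alpha subunits, the members can be compared without any scaling between libraries. Itga5 was at 0.463 times the FPKM of Itgb1 in Lef1 P2 (0.426 to 0.503), 0.229 times in Lef1 P5 (0.205 to 0.256) and 0.374 times in empty vector P2 (0.343 to 0.408). The 3 intervals do not overlap, and Lef1 P5 is the lowest. Itgav was at 0.269 times Itgb1 in Lef1 P2 (0.247 to 0.293), 0.155 times in Lef1 P5 (0.139 to 0.172) and 0.172 times in empty vector P2 (0.156 to 0.189). For Itgav it is Lef1 P2 that stands above the others, whose intervals overlap. Itga3 was at 0.424, 0.397 and 0.388 times Itgb1 in these libraries, with overlapping intervals. Itga6 was at 0.831 times in Lef1 P2, 0.703 times in Lef1 P5 and 0.899 times in empty vector P2, with Lef1 P5 the lowest and the intervals of the others overlapping.

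The make-up of the 6 alpha subunit transcripts among the members shows the same values as shares. Their sum was 92.2 FPKM in Lef1 P2, 65.6 FPKM in Lef1 P5 and 90.55 FPKM in empty vector P2. Itga6 held the largest share, 40.9% in Lef1 P2 (39.1 to 42.7), 46.1% in Lef1 P5 (43.9 to 48.4) and 48.2% in empty vector P2 (46.3 to 50.2). The share of Itga5 was 22.8% in Lef1 P2 (21.3 to 24.4), 15.0% in Lef1 P5 (13.6 to 16.6) and 20.04% in empty vector P2 (18.6 to 21.6). That of Itga3 was 20.9%, 26.01% and 20.8% in this order. Its own level was not higher in Lef1 P5 (19.25, 17.1 and 18.8 FPKM), where the sum was lowest. Itgav held 13.2%, 10.2% and 9.20%, and Itga7 and Itga1 had the smallest shares, at most 2.12% and 1.01% in any library.

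**Figure D4:**
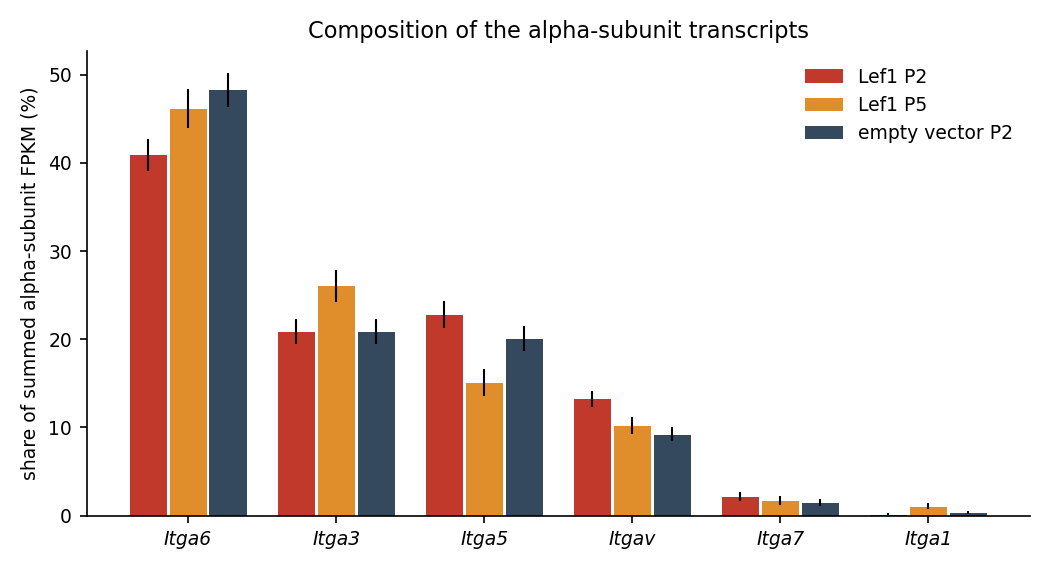
Share of each alpha subunit gene in the summed FPKM of the 6 alpha subunit genes, in percent, for Lef1 P2, Lef1 P5 and empty vector P2; error bars are 95% counting intervals of the gene's own reads. Itga5 has 15.0% in Lef1 P5, below 22.8% in Lef1 P2 and 20.04% in empty vector P2, while Itga6 is first in every library.

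Because Lef1 binds DNA through a short motif, the promoters of the member with a called difference and of the member that holds the motif are shown, from RefSeq on GRCm38.p6 and read along the gene from 250 bases before the start to 50 bases from it. The letters searched, on both strands, were those of CTTTGNN with A or T at each N. Promoters were at hand for 8 of the 10 members, all but Itga6 and Itga7. The motif was in that of Itga1 alone, starting 113 bases before the start, while 16.9% of 32851 such windows of all genes hold it. The letters GATA with A or T before them and A or G after them, on either strand, are carried by 29.8% of windows and were in none of the 8. A match is a description of these letters, and no match says nothing of the factor. The Itga1 window is at chr13:115101915-115102214 on the minus strand, with the motif in capitals, and the Itga5 window at chr15:103366742-103367041 on the minus strand, with no letters in capitals.
Itga1: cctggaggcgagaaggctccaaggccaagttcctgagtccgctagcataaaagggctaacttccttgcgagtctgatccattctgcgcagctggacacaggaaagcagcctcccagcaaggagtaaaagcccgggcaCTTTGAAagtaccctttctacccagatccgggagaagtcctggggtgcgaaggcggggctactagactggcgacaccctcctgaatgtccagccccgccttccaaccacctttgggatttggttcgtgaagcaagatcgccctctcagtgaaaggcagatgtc
Itga5: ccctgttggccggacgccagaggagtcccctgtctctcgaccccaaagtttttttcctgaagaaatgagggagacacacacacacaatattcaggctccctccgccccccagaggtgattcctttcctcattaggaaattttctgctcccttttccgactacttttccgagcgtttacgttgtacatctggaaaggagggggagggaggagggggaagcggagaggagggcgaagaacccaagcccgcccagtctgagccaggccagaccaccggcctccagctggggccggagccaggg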

How the data were processed

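Total RNA of 3 cultures was sequenced, 1 library each. The aligner Bowtie 0.12.2 and the build mm8 are named in the submitters' processing notes. The sources used here do not give the counting program, its strand setting or its treatment of reads that match several genes. Per the file headers, each deposited table gives for every Entrez gene number the FPKM, the expected count and the length. The deposited expected counts are estimates, not whole in 8.56%, 8.49% and 8.61% of genes listed in Lef1 P2, Lef1 P5 and empty vector P2, but whole for all 10 receptor genes. The deposited FPKM values were used as they are, and a gene missing from a table was taken as 0. The tables list genes down to 0.01 FPKM, and 3 reads on 1 kb amount to 0.327, 0.320 and 0.325 FPKM.

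Symbols came from RefSeq on GRCm38.p6 through the Entrez numbers (17951 of 17997 matched), and no coordinates of the mm8 build are given. Ratios were log2((x + 1)/(y + 1)); folds in the text are plain FPKM ratios with exact conditional binomial 95% intervals. TMM factors came from edgeR 4.0.16 on rounded expected counts, and no edgeR test was run; the rest used Python 3.11.15 and scipy 1.17.1. The members and lists were chosen with earlier results of these data known. Genes named are the 10 members, Lef1, up to 3 called genes at each end of each list per comparison, and markers; a search for genes with a pattern like a member called in Lef1 P2 over empty vector P2 returned no gene because 0 were called. Other names (Fn1, Lama5, Lamc1, Tln1, Fermt2, Itgb4, Itga2, Itga10, Itga11 and Ddr1) were added after their values were seen.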

Additional observations from a re-analysis of the deposited data

Results flagged for a closer look

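In Lef1 P2 and Lef1 P5, 5 members lay on opposite sides of their level in empty vector P2. The share of all genes that did so was not computed, so this count is not a result about the receptors. The median log2 ratio of all genes that passed was 0.09 for Lef1 P2 and -0.02 for Lef1 P5. The difference between the 2 ratios of a member was not tested, since each passage is 1 library and both ratios share the empty-vector library. There is no empty-vector library at passage 5, so passage and Lef1 cannot be told apart in the ratios of Lef1 P5. Below, passage 2 and passage 5 name the Lef1 library that is set against empty vector P2. The log2 ratio of Itga5 was 0.20 at passage 2 and -0.82 at passage 5, with counting intervals that leave out no change at both passages as deposited. At passage 2 it was 0.05 with median-of-ratios or TMM scaling. That of Itgav was 0.50 at passage 2 and -0.28 at passage 5, again with both intervals leaving out no change. Itga7, below 3 FPKM, was at 0.35 at passage 2 and -0.14 at passage 5, and the second interval includes no change. Itga3 was at 0.030 in Lef1 P2 and -0.13 in Lef1 P5, with intervals that include no change at both, and at -0.12 in Lef1 P2 with median-of-ratios scaling. Itga1, on 6 to 37 reads, was at -0.18 at passage 2 and 0.40 at passage 5, and the first interval includes no change.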

How the results depend on the processing

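In Lef1 P2 over empty vector P2 the count of calls among receptor genes was 0 under all 13 alternatives. A higher fold threshold, minimum or pseudocount and the rule of non-overlapping counting intervals can only remove calls. Under those the count of 0 was fixed in advance, so it is no sign of stability. In Lef1 P5 over empty vector P2 the count of lower calls was 1 with a fold threshold of 1.5 (Itga5) and otherwise 0. In Lef1 P5 over Lef1 P2 the 1 lower call, Itga5, became 0 with a pseudocount of 5 FPKM, median-of-ratios, TMM or quantile scaling or a fold threshold of 4, and 2 with a fold threshold of 1.5 (Itga5 and Itgav); with CPM, which uses no length, 1 gene, Itga1, was called higher. Of 390 member ratios recomputed, 359 moved by no more than their counting interval and 31 by more. The 359 include every ratio under the changed minimums, fold thresholds and interval rule, which leave a ratio as it is by construction. The only called ratio, that of Itga5 in Lef1 P5 over Lef1 P2, did not change sign. Over all genes the counts ranged from 106 to 1864 higher and 9 to 855 lower in Lef1 P2 over empty vector P2 (691 and 194 as deposited), from 17 to 436 and 7 to 602 in Lef1 P5 over empty vector P2 (142 and 130), and from 5 to 845 and 42 to 2116 in Lef1 P5 over Lef1 P2 (199 and 727), the extremes coming from the fold thresholds. With quantile scaling 59.5% of calls in Lef1 P2 over empty vector P2 were higher, against 78.1% as deposited. No paired analysis was possible because each group has 1 library; no library could be left out. Depth limits Itga1 and Itga7, at no more than 71 reads. With a pseudocount of 5 FPKM the calls named for Itga2b, Itga9, Itgb7, Parva, Sgce, Sntb2, Cd82, Tspan9 and Adgrg6 in Lef1 P2 over empty vector P2 were lost too, as were those for Itgb7 in Lef1 P5 over empty vector P2 and for Parva, Parvb, Sgce, Cd82, Cd47, Sdc4 and Itga2b in Lef1 P5 over Lef1 P2.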
